A study of Mus musculus with 4 samples.

Results

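The cells described here are luminal-type epithelial cells of mouse prostate tumours that express Ltf together with genes such as Sftpd, Slc34a2 and Cyp2f2. A cell barcode was a member when it met the following limits on its counts of unique molecular identifiers (UMIs, each a captured transcript). It had at least 3000 UMIs, at most 20% of them from mitochondrially encoded genes, and at least 10 UMIs of the luminal keratins Krt8 and Krt18 together. At least 3 of the 7 genes Ltf, Sftpd, Slco1a5, Clca1, Slc34a2, Cyp2f2 and Vnn1 had 2 or more UMIs each. Fewer than 3 of Reg1, Onecut2, Lgals4, Ttr, Cym, Akr1b7 and Lypd8 reached 2 UMIs, and fewer than 3 of Upk1b, Atp4a, Plat, Arl14, Ffar4 and Prss22 did. The rule gave 624 cells of 33061 barcodes (1.89%), which is 7.40% of the 8435 cells that passed the filters and the keratin limit. The PCSp mice held 180 and 146 members and the PSp mice 160 and 138. Because these counts chose the cells, levels of the rule's genes in them are a description and support nothing.

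The study dissociated whole prostate tumours of 4 castrated mice, 2 of each genotype, and sequenced single cells with 10x Genomics 3' chemistry. PCSp mice carried PB-Cre, Chd1L/L, SpopF133V and the mTmG reporter, and PSp mice carried PB-Cre, SpopF133V and mTmG, and both carried a further conditional allele pair. Both genotypes therefore shared that allele pair, the Spop mutation, the Cre, the reporter and castration at 9 months of age with collection 1 month later, and differed in the Chd1L/L alleles. PB-Cre is driven by the probasin promoter, which acts in prostate epithelium, so the other cells of the tumour are not its target, and no mice without the Spop mutation or without castration are analysed here.

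Lactoferrin, the product of Ltf, is an iron-binding protein of milk, tears and mucosal secretions that withholds iron from microbes, and mucosal epithelia release it with other defence proteins. Sftpd encodes surfactant protein D, a collectin that binds microbial sugars. In the mouse prostate, luminal cells near the urethra with progenitor features are known to express Psca, Krt4 and Ly6a, to survive castration and to differ from the secretory luminal cells that depend on androgen. CHD1 is a chromatin remodeller and SPOP brings target proteins to a cullin ubiquitin ligase.

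Ltf and Cyp2f2 were found in nearly all members and Clca1 in few. The other Krt8 Krt18 cells, here and below, are all such cells that were not members. They include 1233 cells with at least 3 rule genes that the rule's 2 further lists left out. Ltf reached 2 UMIs in 88.0% of members and 26.9% of the other Krt8 Krt18 cells, and Cyp2f2, a cytochrome P450 known from airway club cells, in 93.3% of members and 73.7% of other cells. Slc34a2, a sodium-phosphate cotransporter, reached it in 61.4% of members and 16.3% of other cells. Sftpd did so in 45.7% of members and 10.7% of other cells. Slco1a5, an organic anion transporter, did in 45.4% of members and 7.60% of other cells. Vnn1, a pantetheinase, followed with 24.8% of members and 6.90% of other cells. Clca1, a secreted protein of mucus-producing cells, reached 2 UMIs in only 12.3% of members against 2.51% of other cells, so the data go against Clca1 as a general mark of these cells. Of the 7 genes Ltf was both common in members and uncommon in the other cells as a class. The cells that met the rule are called Ltf cells, or members, below. Of the 1233 cells left out, 88.8% reached 2 UMIs of Ltf, so Ltf was not particular to members. In 3175 filtered cells with no UMI of Krt8 or Krt18, the share was 0.787% for Ltf, 0.567% for Cyp2f2 and 0 for Sftpd, Slco1a5, Clca1, Slc34a2 and Vnn1, at a median of 5110.0 to 5534 UMIs a cell.

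The level of Ltf, as UMIs summed over the members of a mouse and scaled to a total of 1000000 (CPM), was 797 and 1435 CPM in the PCSp mice and 776 and 516 CPM in the PSp mice. The other Krt8 Krt18 cells had 190.5 and 372 CPM in the PCSp mice and 355 and 159 CPM in the PSp mice. PCSp mouse 2 was highest in both classes, and the ranges of the genotypes in the members did not overlap, since PCSp mouse 1 lay just above PSp mouse 1. Among the other cells, those that the rule's 2 further lists left out had Ltf levels of 570 and 1008 CPM in the PCSp mice. In the PSp mice these cells had 887 and 448 CPM. They lay above members in PSp mouse 1 and below them in the other mice. Sftpd stood at 153 and 174 CPM in the PCSp mice and 137 and 104 CPM in the PSp mice in members, with at most 40.0 CPM in the other cells of any mouse. Cyp2f2 varied least, with 1002 and 887 CPM in the PCSp mice and 890.4 and 939 CPM in the PSp mice. Clca1 varied most among the mice, with 20.6 and 47.7 CPM in the PCSp mice and 35.8 and 14.02 CPM in the PSp mice, and PCSp mouse 2 and PSp mouse 1 were the higher ones of their genotypes. C3, the central complement component and no part of the rule, had 124 and 156 CPM in the PCSp mice and 183 and 125 CPM in the PSp mice in members. In other Krt8 Krt18 cells the level was 43.0 and 45.4 CPM in the PCSp mice and 66.1 and 28.0 CPM in the PSp mice. Filtered cells with no UMI of Krt8 or Krt18 had more C3 than members, with 536 and 949 CPM in the PCSp mice and 663 and 548 CPM in the PSp mice.

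**Figure D1:**
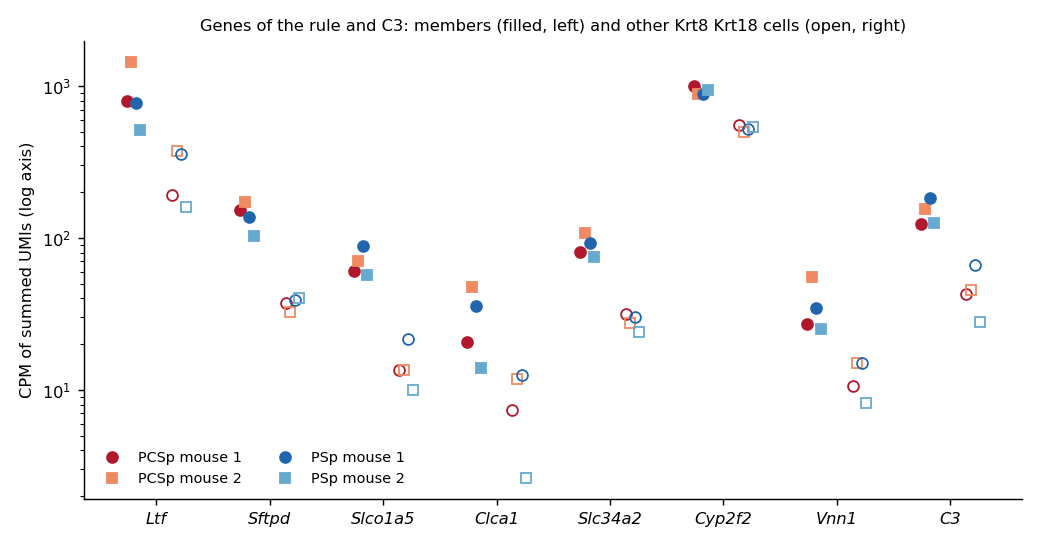
CPM of summed UMIs (log axis) of the 7 genes of the rule and C3 in each mouse, with members as filled symbols on the left of each pair and other Krt8 Krt18 cells as open symbols on the right; PCSp mice are red and PSp mice blue. Members lie above the other cells in every mouse for each gene, as the rule favours for the 7 genes, and the gap is smallest for Cyp2f2.

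The rule's genes were shared unevenly among members. The 10% of members with the most Ltf UMIs held 55.6% and 58.0% of all Ltf UMIs in the PCSp mice and 50.1% and 49.2% in the PSp mice. For Clca1 the top 10% held 81.2% and 87.2% in the PCSp mice and 69.9% and 83.3% in the PSp mice, while for Slc34a2 it held 27.2% to 34.9% over the 4 mice. A few cells thus carried most Clca1, and one cell of PCSp mouse 2 alone held 27.7% of that mouse's Clca1 UMIs in members. Exactly 3 rule genes were present in 97 and 82 members of the PCSp mice and 73 and 88 of the PSp mice, and all 7 in 3 and 0 members of the PCSp mice and 1 and 1 of the PSp mice. Cells just inside the limit, with exactly 3 rule genes, had Ltf levels of 493 and 895 CPM in the PCSp mice and 529 and 421 CPM in the PSp mice. Cells just outside it, with exactly 2 rule genes and within the other limits, had Ltf levels of 205 and 377 CPM in the PCSp mice and 244 and 154 CPM in the PSp mice.

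Each gene in turn was also left out of the rule. The 7 genes were chosen with earlier results of these data known, so the values below are a description and support nothing. Cells chosen on the other 6 genes had Ltf levels of 964 and 1651 CPM in the PCSp mice and 784 and 564 CPM in the PSp mice. The remaining Krt8 Krt18 cells had 204 and 396 CPM in the PCSp mice and 366 and 169 CPM in the PSp mice. Chosen without Sftpd, the cells had Sftpd levels of 116 and 138 CPM in the PCSp mice and 123 and 69.3 CPM in the PSp mice. The rest had 41.2 and 36.1 CPM in the PCSp mice and 40.6 and 42.5 CPM in the PSp mice. Each of the 7 genes was higher in the cells chosen without it than in the rest in each of the 4 mice, and the smallest ratio was that of Cyp2f2 in 3 of the mice and that of Sftpd in PSp mouse 2. A cell with more UMIs can show more of any list. Members had a median of 24400.0 and 18334 UMIs in the PCSp mice and 27816 and 23877.5 UMIs in the PSp mice. The median of the other Krt8 Krt18 cells was 20191 and 17282.5 UMIs in the PCSp mice and 25161 and 24192.5 UMIs in the PSp mice, and it was 6827 to 10221 UMIs for cells with none of the 7 genes. Thinned to 3000 UMIs a cell, the share of members with at least 1 UMI of Ltf was 60.0 and 62.3% in the PCSp mice and 61.2 and 47.1% in the PSp mice, and that of the other cells 15.7 and 25.0% in the PCSp mice and 23.2 and 15.5% in the PSp mice. Unthinned, the share was 92.8 and 93.8% in the PCSp mice and 93.1 and 94.9% in the PSp mice for members. For the other cells it was 35.3 and 45.4% in the PCSp mice and 44.0 and 38.0% in the PSp mice.

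Most cells with the Ltf genes also showed a second programme and were therefore left out by the rule. Of 1857 Krt8 Krt18 cells with at least 3 rule genes, 624 were members and 1233 were not. The second programme was in most cases the Upk1b list, a set that holds the uroplakin Upk1b and the gastric proton pump subunit Atp4a. It alone was present in 271 and 226 cells of the PCSp mice and 246 and 261 of the PSp mice. The list around Reg1 and Lgals4, genes of digestive epithelium, alone was present in 7 and 10 cells of the PCSp mice and 12 and 3 of the PSp mice, and both lists in 30 and 68 cells of the PCSp mice and 61 and 38 of the PSp mice. Members were thus 36.9% and 32.4% of the cells with 3 rule genes in the PCSp mice and 33.4% and 31.4% in the PSp mice. The cells left out were deeper, with a median of 35689.5 and 31716.5 UMIs in the PCSp mice and 41302 and 45918 UMIs in the PSp mice.

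The overlap was smaller after thinning to equal depth, which by itself lowers the detection of all 3 lists. The number of cells with 3 or more rule genes fell too, from 1857 as sequenced to 677, with shallower cells left out. How far differences in depth between cells made the overlap was not tested. When each of the 6665 keratin cells with at least 10000 UMIs was thinned to 10000 UMIs, a choice made after the overlap was seen, 677 cells had 3 or more rule genes. Of these, 75.0% and 70.1% in the PCSp mice and 75.6% and 76.0% in the PSp mice showed neither other list. At this equal depth the Upk1b list was present in 24.5% and 26.6% of the cells with 3 rule genes in the PCSp mice, against 16.4% and 14.3% of their other cells. In the PSp mice it was present in 20.8% and 23.2%, against 10.1% and 18.9% of their other cells. The Reg1 list went the other way, with 1 of 200 and 7 of 184 cells in the PCSp mice, against 10.8% and 11.9% of their other cells. In the PSp mice it was present in 7 of 168 and 1 of 125 cells, against 7.48% and 5.86% of their other cells. In each of the 4 mice at equal depth the Upk1b share was thus higher, and the Reg1 share lower, in the cells with 3 rule genes than in the rest, as a description with no test.

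**Figure D2:**
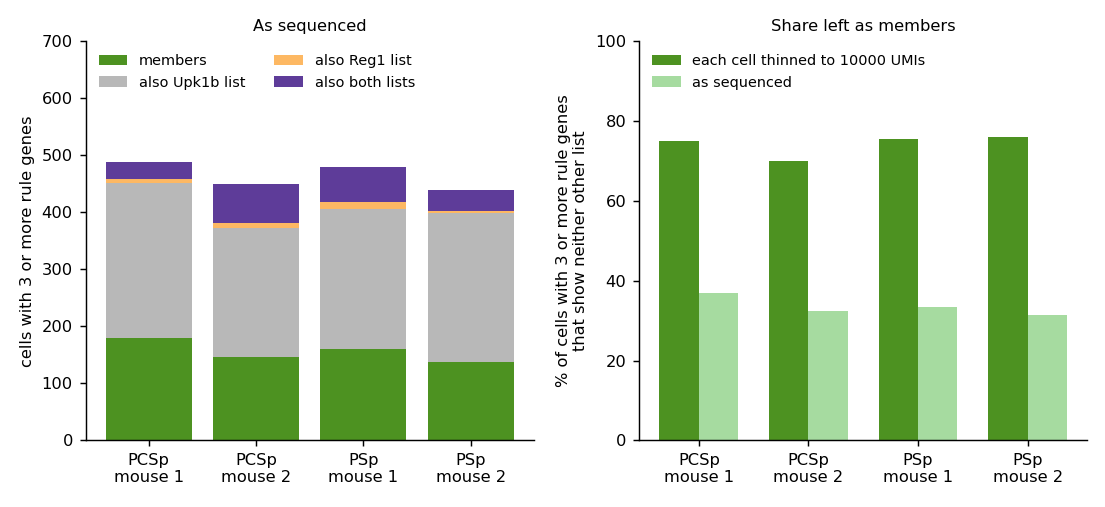
Left, number of cells with 3 or more rule genes in each mouse, split into members (green) and cells that also show the Upk1b list (grey), the Reg1 list (orange) or both (purple). Right, percentage of such cells that show neither other list, with each cell thinned to 10000 UMIs (dark) and as sequenced (light). The share is 70.1% to 76.0% at equal depth and 31.4% to 36.9% as sequenced, and thinning by itself lowers the detection of every list.

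The share of these cells in the epithelium did not separate the genotypes. Members were 7.48% (95% exact interval 6.46 to 8.60) and 7.22% (6.13 to 8.44) of the Krt8 Krt18 cells in the PCSp mice. In the PSp mice they were 8.70% (7.45 to 10.1) and 6.37% (5.38 to 7.48). The intervals are Clopper-Pearson and cover counting error only. The mean was 7.35 ± 0.180% in PCSp mice and 7.54 ± 1.65% in PSp mice (SD, n = 2 each), a difference of -0.188 percentage points. A two-sided exact permutation test gave p = 1, and 2 mice against 2 allow no p below 0.333. The PSp mice lay on both sides of the PCSp mice, and the sign of the difference depended on single settings and on PSp mouse 1: without that mouse it was 0.977 percentage points.

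The 4 libraries held 6539 to 9656 barcodes and 66874620 to 90839725 UMIs, and between 1839 and 2408 Krt8 Krt18 cells each. Libraries shared 11 to 27 barcodes pairwise (0.168% to 0.372% of the smaller one), and their summed counts gave a chi-square of 4.77 to 8.51 for each degree of freedom, where sampling noise alone gives about 1, so none was a copy of another. The members of a mouse summed to 3104637 to 4899535 UMIs. The highest-scoring barcodes in a doublet score included 39 members (6.25%), and 45 members (7.21%) had 2 or more UMIs of at least 2 markers of one non-epithelial class.

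Beyond the rule's 7 genes, the highest ratios to the other Krt8 Krt18 cells were those of single genes such as Hp, Cp, C3 and Ccl20 and of genes of the interferon list. Of 2650 genes with at least 50 CPM in the members of every mouse, 8 outside the rule were 2 or more times as high as in the other cells in every mouse (5 CPM added to both levels). Since the same cells' counts chose the members, no test was made of these ratios. Hp, haptoglobin, the plasma protein that binds free haemoglobin, had 170.0 and 359 CPM in the PCSp mice and 87.7 and 156 CPM in the PSp mice in members. In the remaining keratin cells it was 46.5 and 39.7 CPM in the PCSp mice and 27.2 and 27.8 CPM in the PSp mice. PCSp mouse 2 was far the highest, and the ratio ran from 2.88 to 8.14 times. Cp, the copper ferroxidase ceruloplasmin, had 441 and 486 CPM in the PCSp mice and 418 and 420.0 CPM in the PSp mice in members. The other keratin cells had 169.8 and 155 CPM in the PCSp mice and 212 and 159 CPM in the PSp mice. It was even among the mice. The iron and antimicrobial list as a whole went both ways: 12 of its 32 genes, Ltf among them, were higher in members in every mouse and 10 lower in every mouse. Its sum was 1.06 to 1.38 times that of the other cells. Of the complement list, 4 of 20 genes were higher in every mouse and 6 lower. Lcn2, whose product binds bacterial iron chelators, had 2779 and 4119 CPM in the PCSp mice and 1887 and 2491 CPM in the PSp mice in members. Other Krt8 Krt18 cells stood at 969 and 1543 CPM in the PCSp mice and 1226 and 984 CPM in the PSp mice. Slpi, a secreted inhibitor of leukocyte proteases, had 74.7 and 195 CPM in the PCSp mice and 50.9 and 75.3 CPM in the PSp mice in members. The other cells had 32.6 and 42.2 CPM in the PCSp mice and 29.3 and 22.2 CPM in the PSp mice.

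Chemokine genes were among the 20 of highest ratio. Ccl20, whose product attracts cells with the receptor CCR6, had 187 and 258 CPM in the PCSp mice and 155 and 175 CPM in the PSp mice in members. In other Krt8 Krt18 cells the level was 56.3 and 58.1 CPM in the PCSp mice and 62.1 and 45.2 CPM in the PSp mice. Cxcl5, a neutrophil attractant, had 886 and 1711 CPM in the PCSp mice and 1337 and 1029 CPM in the PSp mice in members, and its ratio to the other cells ran from 1.82 to 2.73 times. Cxcl17, expressed by mucosal epithelia, ran from 1.76 to 1.90 times. The others of the 20 were C3, Clca3a2 of the same family as Clca1, the alcohol dehydrogenase Adh1, the DNA repair gene Rad51b, Kctd14 and, from the interferon response, Ifit2, Ifit3, Rsad2, Oasl1, Bst2, H2-Q6, H2-Q7, Isg15, Slfn2 and Iigp1. Clca3a2 had 237 and 407 CPM in the PCSp mice and 233 and 131 CPM in the PSp mice in members. In the remaining keratin cells it was 94.98 and 131 CPM in the PCSp mice and 96.6 and 54.5 CPM in the PSp mice. Of the chemokine and NF-kB list, 13 of 27 genes were higher than in the other cells in every mouse and 2 lower in every mouse.

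**Figure D3:**
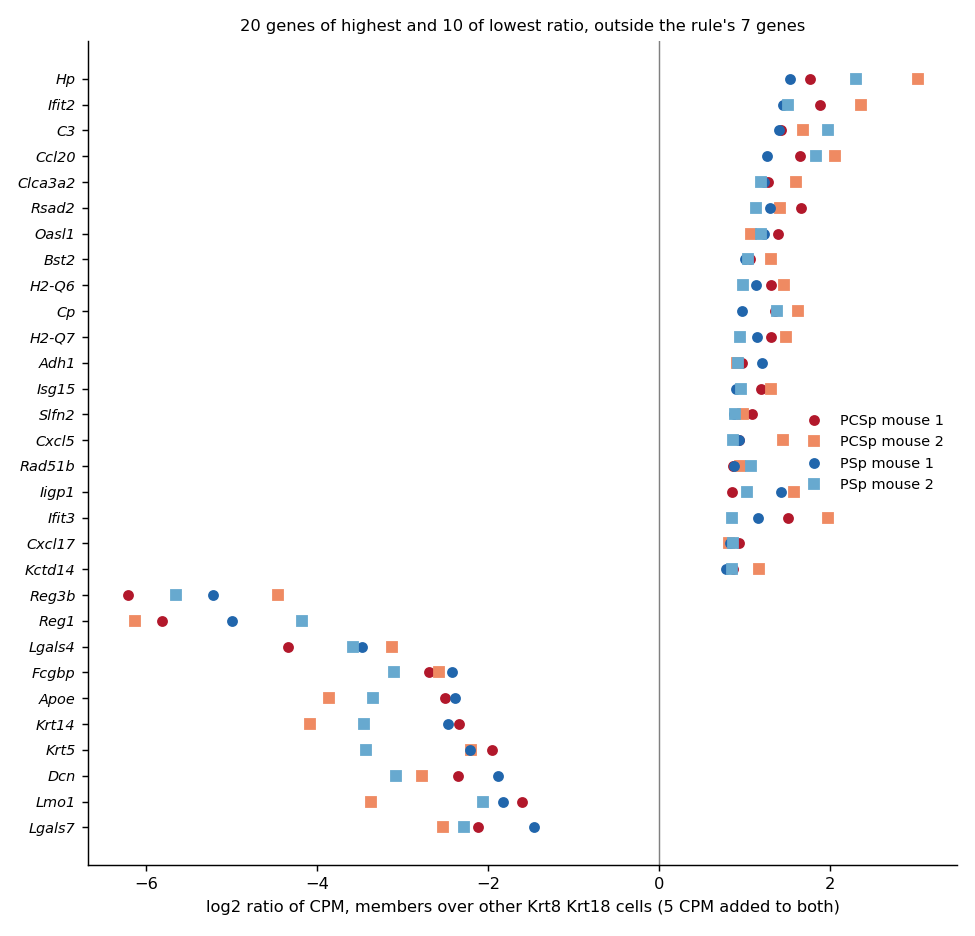
Log2 ratio of CPM in members over other Krt8 Krt18 cells, with 5 CPM added to both, for the 20 genes outside the rule's 7 with the highest ratio in their lowest mouse and the 10 with the lowest ratio in their highest mouse; each symbol is 1 mouse. The first 20 lie right of 0 in all 4 mice, with Hp reaching furthest, and the last 10 lie left of 0, among them Reg3b, Reg1 and Lgals4, of which Reg1 and Lgals4 are genes the rule limits.

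Interferon-stimulated genes were high in these cells throughout. All 34 genes of the interferon list in the files were higher in members than in the other Krt8 Krt18 cells in every mouse. Their summed level was 7072 and 5848 CPM in the PCSp mice and 9588 and 9774 CPM in the PSp mice in members. The other keratin cells had 3398 and 2523 CPM in the PCSp mice and 5383 and 5618 CPM in the PSp mice. Cells with the Upk1b list and fewer than 3 rule genes had 2945 and 2471 CPM in the PCSp mice and 5156 and 6074 CPM in the PSp mice, and cells left out for a second programme 5255 and 3538 CPM in the PCSp mice and 7612 and 6489.9 CPM in the PSp mice. The level was not carried by a few cells: the median member had 5386 and 3806 CPM in the PCSp mice and 6852 and 7097 CPM in the PSp mice and the median other cell 1843 and 1233 CPM in the PCSp mice and 3661 and 3717 CPM in the PSp mice. At least 10 of the 34 genes were detected in 86.7 and 61.6% in the PCSp mice and 90.6 and 92.0% in the PSp mice of members, at the depths given above. Of the other Krt8 Krt18 cells, 43.2 and 32.0% in the PCSp mice and 58.5 and 65.8% in the PSp mice showed as many. Isg15, a ubiquitin-like protein joined to others in the antiviral response, had 1160.3 and 887 CPM in the PCSp mice and 1450.5 and 1718 CPM in the PSp mice in members. Other Krt8 Krt18 cells stood at 505 and 355 CPM in the PCSp mice and 774 and 884 CPM in the PSp mice. Bst2, which tethers budding virions, had 519 and 508 CPM in the PCSp mice and 720.0 and 879 CPM in the PSp mice in members. The other cells had 246 and 202 CPM in the PCSp mice and 356 and 424 CPM in the PSp mice. The 16 genes of MHC class I were also higher in members in every mouse, with a sum of 10087 and 7809.9 CPM in the PCSp mice and 10797 and 10979.9 CPM in the PSp mice in members. In other Krt8 Krt18 cells the level was 5515 and 3997 CPM in the PCSp mice and 6219.6 and 7369 CPM in the PSp mice. H2-Q6 and H2-Q7, Ifit3 and Ifit3b, and Clca3a1 and Clca3a2 are near-identical pairs between which reads can be split, so their single values are uncertain.

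The promoters of 4 of these genes are shown because the interferon genes moved together, by class of cell and by mouse. Each line gives the 250 bases before the gene's start from RefSeq on GRCm38.p6, 5′ to 3′ on the gene's own strand, and capitals mark each match to GAAA followed by 2 bases of any kind and GAAA again, the core of the element bound by interferon-activated factors, or to its reverse complement (TTTC, 2 bases, TTTC).
Isg15 (chr4:156200819-156201068, minus strand): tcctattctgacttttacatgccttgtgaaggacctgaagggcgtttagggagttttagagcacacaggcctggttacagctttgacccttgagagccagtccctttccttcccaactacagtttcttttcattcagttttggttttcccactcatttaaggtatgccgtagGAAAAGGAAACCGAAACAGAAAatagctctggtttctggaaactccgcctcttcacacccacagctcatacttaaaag
Ifit3 (chr19:34583279-34583528, plus strand): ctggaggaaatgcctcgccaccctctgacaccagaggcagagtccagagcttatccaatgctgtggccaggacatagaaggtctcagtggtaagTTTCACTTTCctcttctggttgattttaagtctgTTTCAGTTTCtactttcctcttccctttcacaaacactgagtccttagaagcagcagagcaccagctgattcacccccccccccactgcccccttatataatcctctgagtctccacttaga
Rsad2 (chr12:26456453-26456702, minus strand): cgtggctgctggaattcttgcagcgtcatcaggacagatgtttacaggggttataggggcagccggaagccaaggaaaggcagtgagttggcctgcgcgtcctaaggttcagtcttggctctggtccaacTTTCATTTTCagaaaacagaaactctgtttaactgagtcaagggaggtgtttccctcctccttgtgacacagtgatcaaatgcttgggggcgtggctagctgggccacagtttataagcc
Bst2 (chr8:71537473-71537722, minus strand): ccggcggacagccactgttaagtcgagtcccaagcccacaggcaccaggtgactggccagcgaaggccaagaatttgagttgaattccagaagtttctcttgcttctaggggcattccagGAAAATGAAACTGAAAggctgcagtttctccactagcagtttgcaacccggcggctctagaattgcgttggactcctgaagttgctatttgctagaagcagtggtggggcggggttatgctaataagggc
Isg15 had 3 overlapping matches, which began 78, 72 and 66 bases before the start. Ifit3 had 2 separate ones at 156 and 122 bases, Rsad2 had 1 at 120 bases and Bst2 had 2 overlapping ones at 130 and 124 bases. Over all 27018 genes with such a sequence, 3.46% had a match on either strand. Only 27 of the 34 list genes had a sequence, under the 80% that a share over the list would need, so none is given. A match is a run of letters and not a measured site.

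Basal markers were lower in members than in the other cells of every mouse. The summed level of 10 basal markers was 1735 and 1850.5 CPM in the PCSp mice and 2149 and 1353 CPM in the PSp mice in members. In the remaining keratin cells it was 3955 and 4797 CPM in the PCSp mice and 4882 and 3387 CPM in the PSp mice. Each of the 10 was lower in members in every mouse. Low basal sums were not particular to members. Cells left out for a second programme had 1367 and 2307 CPM in the PCSp mice and 2113 and 1539 CPM in the PSp mice. With fewer than 3 rule genes, Upk1b cells had 2059 and 2305 CPM in the PCSp mice and 2397 and 2024 CPM in the PSp mice. Such Reg1 cells had 1978 and 2073 CPM in the PCSp mice and 2190 and 1415 CPM in the PSp mice. Krt14, a basal keratin, was at 104 and 28.7 CPM in the PCSp mice and 107 and 28.6 CPM in the PSp mice in members. Of the luminal progenitor list, 11 of 17 genes were higher in members in every mouse and 3 lower. The sum of that list was 24611 and 24534 CPM in the PCSp mice and 24161 and 26064.5 CPM in the PSp mice in members. It was alike in cells left out for a second programme, with 24851 and 24259 CPM in the PCSp mice and 24610.5 and 29558.5 CPM in the PSp mice. Ly6a, the surface antigen Sca-1, had 2308 and 2582 CPM in the PCSp mice and 2975 and 3053 CPM in the PSp mice in members. The other keratin cells had 1299.6 and 1313 CPM in the PCSp mice and 1678 and 1873 CPM in the PSp mice. Psca, another marker of that list, was low, with 9.39 and 13.5 CPM in the PCSp mice and 7.86 and 13.8 CPM in the PSp mice in members, against 296 and 78.2 CPM in the PCSp mice and 94.1 and 78.7 CPM in the PSp mice in the Upk1b cells. Pigr, the receptor that carries IgA across epithelia, had 2448 and 2209 CPM in the PCSp mice and 1839.6 and 2092 CPM in the PSp mice in members. Other Krt8 Krt18 cells stood at 1349 and 1172 CPM in the PCSp mice and 1193 and 1532 CPM in the PSp mice. Clu, the chaperone clusterin, and Wfdc2, a secreted protease inhibitor, were also higher than in the other cells in every mouse, Wfdc2 with 5148 and 4002 CPM in the PCSp mice and 4375 and 5554 CPM in the PSp mice in members. The other cells had 2654 and 2291 CPM in the PCSp mice and 2750.2 and 3937 CPM in the PSp mice. Neither gene was particular to members. In cells left out for a second programme Wfdc2 had 5121 and 4018 CPM in the PCSp mice and 4753 and 6437 CPM in the PSp mice. Clu had 8753 and 8752 CPM in the PCSp mice and 7610 and 10963 CPM in the PSp mice there. In members Clu had 8941 and 8919 CPM in the PCSp mice and 7124 and 8066 CPM in the PSp mice.

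Secretory and neuroendocrine genes were near 0. Pbsn, the probasin gene of androgen-dependent secretory cells, had 0 and 0.644 CPM in the PCSp mice and 0.207 and 0 CPM in the PSp mice in members. For scale, 3 UMIs in a mouse equal 0.612 to 0.966 CPM. The prostate factor Hoxb13 was present with 55.1 and 38.0 CPM in the PCSp mice and 35.6 and 52.7 CPM in the PSp mice in members. The sum of 12 neuroendocrine markers was 0.207 to 1.43 CPM, with 6 of the 12 at 0 in every mouse. Although Sftpd, Slc34a2 and Cyp2f2 are known from lung, the lung genes Scgb3a2, Bpifa1, Sftpa1, Sftpb and Sftpc had no UMI in the members of any mouse, and Scgb1a1, the leading club cell gene, had 0 and 0 CPM in the PCSp mice and 0.207 and 0 CPM in the PSp mice. Of 10 genes of an airway club cell list, 4 were higher than in the other cells in every mouse and 1 lower. Its sum was 2987 and 3381 CPM in the PCSp mice and 2953 and 2683 CPM in the PSp mice in members. The other cells had 1754 and 1649 CPM in the PCSp mice and 1716 and 1789 CPM in the PSp mice. Cyp2f2 and Sftpd, whose counts chose the cells, are on this list and are among the 4 higher genes. The count and the sums are therefore a description and support nothing. Of the mucus list, Muc5ac, Tff1 and Bpifb1 had none, and of its 22 genes 6 were higher than in the other cells in every mouse, Clca1 of the rule among them, and 6 lower. Muc1, a membrane mucin, had 29.6 and 39.6 CPM in the PCSp mice and 35.4 and 35.0 CPM in the PSp mice in members. In other Krt8 Krt18 cells the level was 15.1 and 16.0 CPM in the PCSp mice and 19.4 and 20.2 CPM in the PSp mice. Fcgbp, a mucus component, had 5.92 and 4.51 CPM in the PCSp mice and 5.59 and 4.41 CPM in the PSp mice in members. In the remaining keratin cells it was 65.5 and 51.9 CPM in the PCSp mice and 51.9 and 75.7 CPM in the PSp mice.

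The lectin gene Reg3b was lower in members than in the other cells of every mouse. It had 25.5 and 195 CPM in the PCSp mice and 20.1 and 10.4 CPM in the PSp mice in members. The other keratin cells had 2263 and 4372 CPM in the PCSp mice and 931 and 766 CPM in the PSp mice. Its relative Reg3g was high in both classes, with 3369.7 and 5407 CPM in the PCSp mice and 2544 and 2815 CPM in the PSp mice in members. Low Reg3b levels were not particular to members: cells with the Upk1b list and fewer than 3 rule genes had 83.9 and 62.1 CPM in the PCSp mice and 25.5 and 8.04 CPM in the PSp mice. Cells with the Reg1 list and fewer than 3 rule genes had 12062 and 14495 CPM in the PCSp mice and 3737 and 4883 CPM in the PSp mice. The trefoil gene Tff3 had 0.408 and 0.644 CPM in the PCSp mice and 2.28 and 4.93 CPM in the PSp mice in members. Other Krt8 Krt18 cells stood at 30.1 and 36.5 CPM in the PCSp mice and 66.2 and 119 CPM in the PSp mice. Cell cycle genes were lower too: 22 of 26 cell cycle genes were lower in members in every mouse and 0 higher, with sums of 369 and 227 CPM in the PCSp mice and 286 and 358 CPM in the PSp mice in members. The other cells had 481 and 497 CPM in the PCSp mice and 618 and 506 CPM in the PSp mice. The median cell differed less, with 223 and 206 CPM in the PCSp mice and 246 and 226 CPM in the PSp mice for members and 264 and 239.6 CPM in the PCSp mice and 266 and 225 CPM in the PSp mice for the other cells, and in PSp mouse 2 members were not lower. All 13 mitochondrially encoded genes were higher in members in every mouse, with sums 1.12 to 1.23 times those of the other cells. This was not particular to members, whose sums were 62625 and 51161.5 CPM in the PCSp mice and 65404 and 75669 CPM in the PSp mice. The Upk1b cells had 56917 and 53433 CPM in the PCSp mice and 68456 and 76048 CPM in the PSp mice. The Reg1 cells had 60942 and 58518 CPM in the PCSp mice and 73032 and 83290 CPM in the PSp mice. Of the xenobiotic and redox list, 12 of 29 genes were higher in every mouse, among them the carbonyl reductase Cbr2 with 1602 and 1933 CPM in the PCSp mice and 1824 and 1422 CPM in the PSp mice in members. In other Krt8 Krt18 cells the level was 1061 and 1049 CPM in the PCSp mice and 1101 and 1109 CPM in the PSp mice. The retinal dehydrogenase gene Aldh1a3 had 105 and 156 CPM in the PCSp mice and 126 and 91.9 CPM in the PSp mice in members.

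The study asks what loss of Chd1 changes in Spop-mutant tumours after castration, and Chd1 was checked first. Chd1 was at 58.4 and 56.0 CPM in the PCSp mice, against 89.2 and 82.8 CPM in the PSp mice, and the groups did not overlap. The fold change was -0.60 ± 0.12 on the log2 scale (± SE) and its adjusted p 0.408 by edgeR's quasi-likelihood test with Benjamini-Hochberg adjustment, here and below over all 11257 genes tested. In filtered cells with no Krt8 or Krt18 UMI, which PB-Cre does not target as a class, Chd1 was not lower, with 78.2 and 74.0 CPM in the PCSp mice, against 66.3 and 64.1 CPM in the PSp mice. Libraries of this kind read the 3' end, which may lie outside the deleted part, so the remaining transcripts do not show whether deletion was complete. Spop had 152 and 161 CPM in the PCSp mice, against 135 and 126 CPM in the PSp mice.

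Only 5 of 11257 genes (0.0444%) differed between PCSp and PSp members at an adjusted p of 0.05, 1 higher (0.00888%) and 4 lower (0.0355%) in PCSp. At an unadjusted p under 0.05, 704 genes (6.25%) differed, of which 346 (3.07%) were higher and 358 (3.18%) lower. The gene that rose was Gm42031, a long non-coding RNA gene (chr8:85125872-85132289, minus strand, mm10), with 305 and 195 CPM in the PCSp mice, against 38.7 and 31.7 CPM in the PSp mice. Its fold change was 2.81 ± 0.23 with an adjusted p of 0.0301, and the other keratin cells had 229 and 146 CPM in the PCSp mice, against 27.6 and 26.1 CPM in the PSp mice. The interferon-induced gene Ifi27l2a (chr12:103442167-103443680, minus strand) fell, with 405 and 337 CPM in the PCSp mice, against 895 and 994 CPM in the PSp mice, a fold change of -1.37 ± 0.14 and an adjusted p of 0.0421. Ecm1, a secreted matrix glycoprotein (chr3:95734147-95739569, minus strand), fell as well, with 49.2 and 48.0 CPM in the PCSp mice, against 110.1 and 113 CPM in the PSp mice, a fold change of -1.22 ± 0.13 and an adjusted p of 0.0421. Within each genotype the mice were close for Ecm1, and the gap between genotypes was far wider than that. Bglap3, of the osteocalcin family (chr3:88368616-88372743, minus strand), fell at low levels, with 8.78 and 8.05 CPM in the PCSp mice, against 30.6 and 31.1 CPM in the PSp mice, a fold change of -1.88 ± 0.18 and an adjusted p of 0.0421. It lay below the level set for naming and was named after its values were seen. The fifth gene, Lypd8, is one whose counts the rule limits, so its call is read as no result, and 4 genes remain.

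These calls lay close to the threshold, and each was lost under at least 1 other setting (adjusted p by edgeR). Without PSp mouse 1 it was 0.0585 for Gm42031 and 0.0831 for Ecm1 and Bglap3, and Ifi27l2a remained called at 0.0467. With at most 10% mitochondrial UMIs Ifi27l2a had 0.0536 and Ecm1 0.0633, and with equal cell numbers Ifi27l2a and Ecm1 both had 0.0630 and Bglap3 0.0927. Without PSp mouse 2 the count was 48 genes, without PCSp mouse 1 it was 29 and without PCSp mouse 2 also 29. In the members with at least 4 rule genes the fold change of Bglap3 was -0.0055 with an adjusted p of 0.999, and Ecm1 had an adjusted p of 0.0737 (edgeR).

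Genes next in order, which did not pass, had the following values. Fabp5, a fatty acid binding protein, had 106 and 113 CPM in the PCSp mice, against 52.5 and 55.0 CPM in the PSp mice (adjusted p 0.0982 by edgeR). Ly6k, of the Ly6 family, had 154 and 298 CPM in the PCSp mice, against 54.4 and 59.2 CPM in the PSp mice, and the endosomal adaptor gene Wdfy1 had 32.0 and 37.7 CPM in the PCSp mice, against 13.9 and 13.5 CPM in the PSp mice. Lrg1, an acute-phase glycoprotein, had 220.0 and 258 CPM in the PCSp mice, against 128 and 133 CPM in the PSp mice (adjusted p 0.146 by edgeR). In the other direction, the chemokine gene Ccl5 had 10.0 and 11.3 CPM in the PCSp mice, against 45.5 and 87.5 CPM in the PSp mice (adjusted p 0.0982 by edgeR) and AY036118, which overlaps a ribosomal RNA repeat, 121 and 108 CPM in the PCSp mice, against 211 and 207 CPM in the PSp mice. For each of these genes both PCSp mice lay on one side of both PSp mice, which was so for 35.2% of all genes tested.

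**Figure D4:**
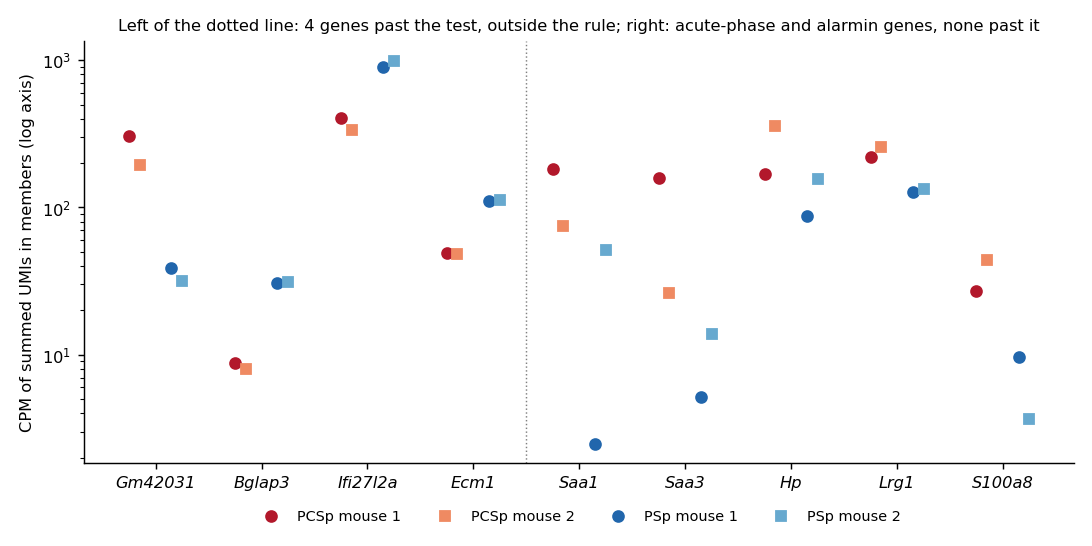
CPM of summed UMIs in members (log axis) for each mouse, PCSp in red left of PSp in blue, for the 4 genes past the test whose counts the rule did not use (left of the dotted line) and 5 acute-phase or alarmin genes with no call. The genotypes are apart for the first 4 genes, with Gm42031 at 305 and 195 CPM in PCSp against 38.7 and 31.7 CPM in PSp, and the mice of one genotype are far apart for Saa1, Saa3 and Hp.

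The interferon list lay lower in PCSp than in PSp members, with 1 gene past the adjusted test. Of 34 genes, 34 had a fold change below 0, 28 an unadjusted p under 0.05 in that direction (3.18% of all genes had) and 1, Ifi27l2a, an adjusted one. For 29 of the 34 the PCSp mice were lower without overlap, against 35.2% of all genes with no overlap in either direction. The median fold change was -0.54, against 0.000190 over all genes. Isg15 had 1160.3 and 887 CPM in the PCSp mice, against 1450.5 and 1718 CPM in the PSp mice, a fold change of -0.65 ± 0.17 and an adjusted p of 0.601 (edgeR). Rsad2, which encodes the antiviral enzyme viperin, had 400.0 and 234 CPM in the PCSp mice, against 549 and 482 CPM in the PSp mice, with PCSp mouse 2 the lowest. Cmpk2, its neighbour and a nucleotide kinase, had 52.7 and 45.1 CPM in the PCSp mice, against 88.3 and 82.5 CPM in the PSp mice, with a fold change of -0.82 ± 0.14 and an adjusted p of 0.229 (edgeR). At the other end of the list Ifit2 had 64.7 and 63.8 CPM in the PCSp mice, against 73.7 and 62.3 CPM in the PSp mice and Isg20 127 and 167 CPM in the PCSp mice, against 157 and 139.9 CPM in the PSp mice. For both genes the genotypes overlapped, and each changed sign under other settings.

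The other Krt8 Krt18 cells of the same mice showed the same direction. There, 34 of 34 list genes had a fold change below 0 and the median was -0.81, with 0 called by edgeR among them, while 3 of 16354 genes (0.0183%) were called there in all and 1396 (8.54%) had an unadjusted p under 0.05. The median difference of fold change, members minus other cells, was 0.24, and edgeR called no list gene for that difference. The sum was also lower in PCSp in filtered cells with no Krt8 or Krt18 UMI, with 4113 and 3052 CPM in the PCSp mice, against 5639 and 4646 CPM in the PSp mice, so the direction was not confined to the keratin cells. In Ifit3 the fold change was -0.58 ± 0.14 in members and -1.31 ± 0.29 in the other cells. The mitochondrially encoded genes lay lower in PCSp too, where 11 of 13 had a fold change below 0 in members, with a median of -0.32 and a sum of 62625 and 51161.5 CPM in the PCSp mice, against 65404 and 75669 CPM in the PSp mice. With members of at most 10% mitochondrial UMIs the interferon median was -0.61. The MHC class I genes were below 0 in 16 of 16 in members, with 7 at an unadjusted p under 0.05 by edgeR (3.18% of all genes in that direction). Their median was -0.27, while in the other Krt8 Krt18 cells 16 of 16 were below 0 with a median of -0.52. In members their sum was 10087 and 7809.9 CPM in the PCSp mice, against 10797 and 10979.9 CPM in the PSp mice. MHC class II went the other way in 6 of 7 genes with no p under 0.05, and PCSp mouse 1 had the highest sum, with 689 and 319 CPM in the PCSp mice, against 303 and 453 CPM in the PSp mice.

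**Figure D5:**
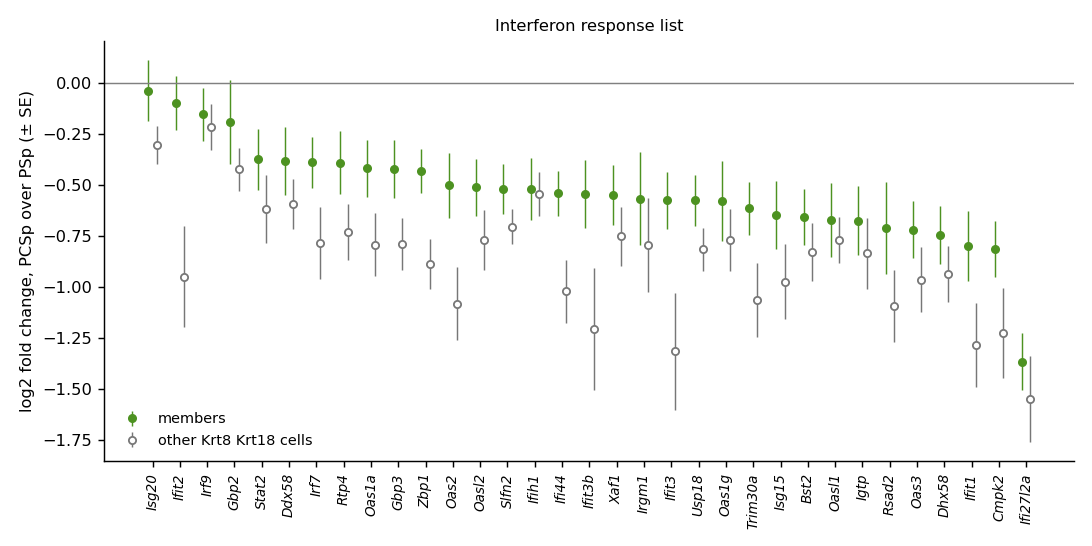
Log2 fold change of PCSp over PSp (± SE, edgeR) for 33 of the 34 genes of the interferon list, in members (green) and other Krt8 Krt18 cells (open grey), in order of the value in members. All points lie below 0, those of the members run from near 0 for Isg20 to -1.37 for Ifi27l2a, and most lie above the point of the other cells.

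Acute-phase and antimicrobial genes lay mostly higher in PCSp members, unevenly among the mice and with 0 past the adjusted test. Of 23 genes of the list that could be tested, 18 had a fold change above 0. In that direction 10 had an unadjusted p under 0.05 by edgeR (3.07% of all genes), with 1 in the other direction (3.18%) and 0 called after adjustment. Ltf, whose counts chose the cells, is among the 18 and among the 10 (unadjusted p 0.0234 by edgeR). It also enters the medians and counts below, and its part in these numbers supports nothing. The median was 0.63, against 0.000190 over all genes, and without PCSp mouse 2 it was 0.19. In the other Krt8 Krt18 cells the median was 0.17, with 7 of 23 genes below 0 and 0 called by edgeR. The direction was thus not confined to members. The difference of fold change, members minus other cells, was above 0 in 17 of 23 genes, with a median of 0.28. Saa3, a serum amyloid A gene, had 158 and 26.4 CPM in the PCSp mice, against 5.17 and 13.8 CPM in the PSp mice, a fold change of 3.34 ± 0.81 and an adjusted p of 0.553 (edgeR). PCSp mouse 1 was far above the rest. Hp, with the values given above, had a fold change of 1.09 ± 0.37 and an adjusted p of 0.764, and the higher PSp mouse came close to the lower PCSp mouse. With at least 4 rule genes its fold change was -0.24. Lcn2 had 2779 and 4119 CPM in the PCSp mice, against 1887 and 2491 CPM in the PSp mice and a fold change of 0.63 ± 0.22. Slpi had 74.7 and 195 CPM in the PCSp mice, against 50.9 and 75.3 CPM in the PSp mice, with PSp mouse 2 just above PCSp mouse 1, and Reg3g had 3369.7 and 5407 CPM in the PCSp mice, against 2544 and 2815 CPM in the PSp mice. S100a8, an alarmin that neutrophils express strongly, had 27.1 and 44.1 CPM in the PCSp mice, against 9.72 and 3.63 CPM in the PSp mice, with a fold change of 2.33 ± 0.39 and an adjusted p of 0.218 (edgeR). The neutrophil markers in members summed to 69.4 and 126 CPM in the PCSp mice, against 39.1 and 22.8 CPM in the PSp mice, 5 of the 6 testable ones had a fold change above 0 and 2 of the 12, Camp and Ngp, were at 0. S100a8 is itself one of these markers and enters both the sum and the 5. In cells with no Krt8 or Krt18 UMI S100a8 had 614 and 310.5 CPM in the PCSp mice, against 1334 and 1119 CPM in the PSp mice. The part of neutrophil RNA in the S100a8 difference was not tested.

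The cholesterol synthesis genes, the subject of the study's title, showed no call in members. Of 20 genes, 17 had a fold change above 0. In that direction 2 had an unadjusted p under 0.05 (3.07% of all genes had) and 0 an adjusted one (edgeR). The median was 0.20, against 0.000190 over all genes. The sum was 551 and 805 CPM in the PCSp mice, against 584 and 477 CPM in the PSp mice, with PCSp mouse 2 highest and PCSp mouse 1 below PSp mouse 1. Without PCSp mouse 2 the median was -0.04. Hmgcs1, an early enzyme of the pathway, had 38.4 and 78.3 CPM in the PCSp mice, against 31.2 and 30.6 CPM in the PSp mice. Srebf2, which encodes SREBP2, had 23.5 and 27.4 CPM in the PCSp mice, against 33.3 and 26.0 CPM in the PSp mice and a fold change of -0.25 ± 0.17 with an adjusted p of 0.881 (edgeR). Of the SREBP control and uptake list, 4 of 12 genes were above 0 and 8 below, with no p under 0.05. In the other Krt8 Krt18 cells the median of the synthesis list was 0.12.

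No gene of the complement, p53 and senescence or solute transport lists passed the adjusted test (edgeR). Of complement genes, 9 of 13 were above 0 with a median of 0.21. Of the p53 and senescence list, 13 of 17 were below 0 with a median of -0.24. Over all genes the median was 0.000190. The p53 target Phlda3 had 44.9 and 50.6 CPM in the PCSp mice, against 76.5 and 83.8 CPM in the PSp mice. Ccnd2, cyclin D2, had 47.8 and 35.1 CPM in the PCSp mice, against 87.9 and 113 CPM in the PSp mice and a fold change of -1.28 ± 0.20 with an adjusted p of 0.189 (edgeR). The transport genes Slc39a8, a zinc and manganese importer, and Slc4a4, a bicarbonate cotransporter, had adjusted p of 0.435 and 0.461 by edgeR. Slc39a8 stood at 455 and 445 CPM in the PCSp mice, against 331 and 306 CPM in the PSp mice. The adhesion gene Ceacam1 had 563 and 494 CPM in the PCSp mice, against 278 and 353 CPM in the PSp mice.

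Whether the genotypes differed otherwise in these cells than in the rest of the epithelium was tested as the difference between their genotype effect and that of the other Krt8 Krt18 cells, within mice. Of 15148 genes, 2 passed (0.0132%), Saa1 and Lypd8, while 686 (4.53%) had an unadjusted p under 0.05. Saa1, which encodes the acute-phase protein serum amyloid A1 (chr7:46740497-46742980, minus strand), had, in members, 183 and 75.0 CPM in the PCSp mice, against 2.48 and 51.4 CPM in the PSp mice. In the other cells it had 26.2 and 7.98 CPM in the PCSp mice, against 2.49 and 26.5 CPM in the PSp mice. The difference of fold changes was 2.13 ± 0.20 with an adjusted p of 0.00199 (edgeR). Members stood above the other cells in both PCSp mice and in PSp mouse 2, and were level with them in PSp mouse 1, so the mice of the PSp group differed widely. The genotype effect in members alone was not called, at an adjusted p of 0.786. Saa1 has a near-identical neighbour, Saa2, between which reads can be split. Lypd8, a secreted protein that keeps flagellated bacteria from the gut wall (chr11:58379043-58390728, plus strand), had, in members, 21.02 and 27.1 CPM in the PCSp mice, against 64.3 and 68.3 CPM in the PSp mice. In the other cells it had 212 and 204 CPM in the PCSp mice, against 152 and 135 CPM in the PSp mice. Lypd8 is one of the 7 Reg1-list genes whose number the rule limits, so these levels are a description, and the call is read as no result. The same test called neither any interferon nor any cholesterol synthesis gene.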

How the data were processed

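Single cells of 4 dissociated prostate tumours were measured, 2 PCSp and 2 PSp mice, one 10x library each. The deposited matrices hold raw UMI counts per gene and barcode. The submitters' processing notes name Cell Ranger 6.1.2 and mm10 for the authors' steps, and the annotation release is not given in the sources used here. Gene positions were taken from GENCODE M21, which held 32235 of the 32285 gene IDs. The members and gene lists were chosen with earlier results of these data known.

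Counts were summed over members in each mouse and tested with edgeR 4.0.16 in R 4.3.3 (quasi-likelihood, TMM, filterByExpr, two-sided, Benjamini-Hochberg threshold 0.05). The difference of genotype effects was fitted with mouse, class and class by genotype as terms. Sums left 2 residual degrees of freedom with a prior of 5.63, and a biological coefficient of variation of 13.3%. The series' design gives 2 mice per genotype. The p-values set the genotype difference against the spread between mice of one genotype, as estimated in part from other genes. In the difference test the spread is that of the class difference within mice. In bulk sums fewer expressing cells and less RNA per cell cannot be told apart. Levels are CPM of these sums, and 3 counts equal 0.612 to 0.966 CPM. The tests were checked on simulated counts.

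Named genes were the 7 rule genes, C3, Chd1, Spop, Srebf2, the 15 of highest mean CPM, the 20 highest and 10 lowest by ratio to other cells (at least 50 CPM in every mouse, 5 CPM added), up to 10 in each direction of the genotype test whose mean reached 20 CPM without overlap (filled to 5 by p), 5 in each direction of the difference test, 3 of each list by p, and list genes by their level. Some genes, and an allele pair that both genotypes carry, are not reported here. Scrublet in scanpy 1.11.5 set a threshold that marked 0% of barcodes, so doublets were kept and the highest-scoring barcodes (0.8% per 1000) left out as an alternative. Other alternatives were DESeq2 1.42.0, other size factors, no count filter, stricter cell rules, equal cell numbers, thinning and leaving out each mouse. Thinning to 10000 UMIs and the test in the other cells were added after seeing the data.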

Additional observations from a re-analysis of the deposited data

Results flagged for a closer look

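Saa1 stands here because its genotype effect in the members differed from that in the other Krt8 Krt18 cells by a test of the difference itself (edgeR). The difference was 2.13 on the log2 scale, it passed the threshold in all 11 alternatives run, and it ran from 1.63 with at least 4 rule genes to 2.99 without PSp mouse 2. In the members alone the Saa1 genotype effect passed without PSp mouse 2 (adjusted p 0.00363) and without the count filter, and in no other alternative. Lypd8 also passed that test, but the rule used its counts, so it is not read as a result.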

How the results depend on the processing

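The count of 5 genes that differed between genotypes in members was 26 with DESeq2, 227 without the count filter, 2 with at most 10% mitochondrial UMIs and 1 with equal cell numbers, and 3 to 48 with 1 mouse left out. The count of 2 genes for the difference of effects was 75 with at least 4 rule genes, 5 with at most 10% mitochondrial UMIs, 128 without the count filter, 14 without cells showing another lineage and 8 without high doublet scores, and 4 to 96 with 1 mouse left out. A genotype left with 1 mouse was assumed to vary like the other. The cause was not tested. The difference in share of -0.188 percentage points reversed to 0.0977 without high doublet scores and to 0.257 with at most 10% mitochondrial UMIs, and ran from -1.35 to 0.977 with 1 mouse left out.

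The interferon median stayed between -0.69 and -0.41 with 1 mouse left out and the MHC class I median between -0.49 and -0.15. The iron and antimicrobial median of 0.63 was 0.40 with at least 4 rule genes, 0.34 with at most 10% mitochondrial UMIs and 0.34 with equal cell numbers, and 0.19 to 0.88 with 1 mouse left out. The cholesterol synthesis median ran from -0.043 to 0.38 with 1 mouse left out. Of single genes, Hp reversed to -0.24 and Isg20 to 0.16 with at least 4 rule genes, and Ifit2 to 0.018 without cells showing another lineage. With 1 mouse left out, values on both sides of 0 were found for C3 (-0.38 to 0.11) and Isg20 (-0.24 to 0.14). No paired analysis was possible because the labels give the groups no shared replicate numbers. With 138 to 180 members a mouse and 2 mice a genotype, low genes were not testable.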
